A study of Arabidopsis thaliana with 3 samples.

Results

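The subject is the set of 4530 regions of the chromosome arms of Arabidopsis thaliana that were found enriched for the histone variant H2A.W.7 and held no base of any arm region found for its relative H2A.W.6. They were chosen from 7750 H2A.W.7 arm regions, 58.5% of that list and 10.4% of the 43500 regions deposited in all. Chromatin came from leaves aged 2 to 3 weeks, 4 g per immunoprecipitation, cut for 15 min with micrococcal nuclease, an enzyme that digests the DNA between nucleosomes. The labels name 3 libraries read as pairs of 50 bases, 1 for H2A.W.6, 1 for H2A.W.7 and 1 control, and give no genotype, strain or treatment for any of them. The protocol mentions unspecific rabbit IgG among the antibodies, but the labels do not say whether the control library came from it, and no list of the control was analysed here. With 1 library per variant there is no replicate, so no difference between the variants is tested and no p-value is given.

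H2A variants replace the standard H2A in some nucleosomes and change what the nucleosome can do. The H2A.W class is a plant class known from heterochromatin, the compact and mostly silent chromatin of transposons and repeats around the centromeres, and carries a C-terminal tail that is known to favour compaction. H2A.W.7 is known, beyond that tail, for a serine that the damage kinase ATM phosphorylates after DNA breaks. The series asks how the damage response is divided between heterochromatin and euchromatin, the open gene-rich chromatin that makes up most of the arms. Regions with H2A.W.7 and no called H2A.W.6 are the places in the arms where the lists of the variants part.

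The lists hold positions alone, with no peak height and no reads. The depth is therefore unknown, and a region missing from the H2A.W.6 list may lie just under its threshold, which the files cannot show. The rule itself was the overlap of the lists, so every count of regions below describes that choice. Just inside it, 4 regions touched an H2A.W.6 region end to end, among them chr1:7356376-7356690, and 35 lay within 20 bp of one. Just outside it, 11 regions were left out for an overlap of 20 bp or less, the smallest being 5 bp at chr5:22510686-22511020. Few regions lay so close to the limit. The median distance of the 4530 regions to the nearest H2A.W.6 region was 12.5 kb (quartiles 2.04 and 37.7 kb), and 827 of them, 18.3%, had one within 1000 bp. The 3220 H2A.W.7 arm regions that did meet H2A.W.6, called shared below, had a median of 78.7% of their bases in H2A.W.6 regions.

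Regions found with H2A.W.7 only were short. Their median length was 325 bp (quartiles 246 and 469 bp), between 310 and 335 bp on each of the 5 chromosomes, and the longest reached 2100 bp. Shared H2A.W.7 regions had a median of 590 bp (495 to 620 bp by chromosome) and reached 12690 bp. Regions of 1000 bp or more made up 3.13% of the regions found with H2A.W.7 only, 142 of them, and 25.9% of the shared ones. The 481 arm regions found with H2A.W.6 only were shorter still, with a median of 270 bp.

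**Figure D1:**
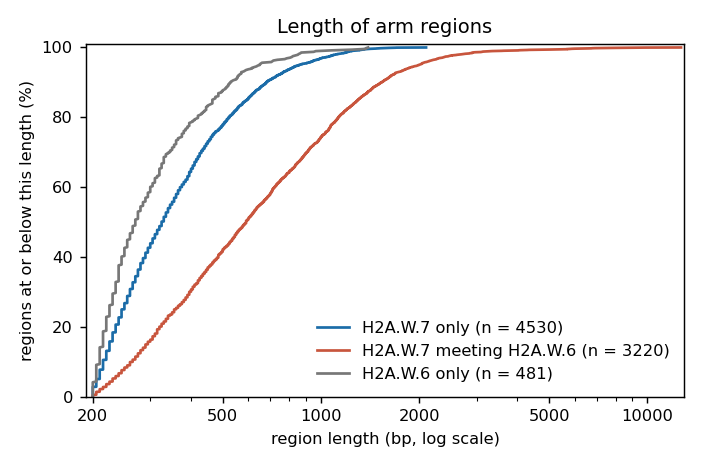
Cumulative share of arm regions, in percent, by region length in bp on a log axis, for the 4530 regions found with H2A.W.7 only, the 3220 H2A.W.7 regions that meet H2A.W.6 and the 481 regions found with H2A.W.6 only. The curve of the regions found with H2A.W.7 only lies between the other two, with a median of 325 bp against 590 and 270 bp.

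The share of H2A.W.7 regions that lacked H2A.W.6 went down with length at every step. It was 82.2% among the 1378 regions from 200 to under 250 bp (95% Wilson interval 80.1 to 84.2) and 58.7% among the 1611 from 400 to under 600 bp (56.2 to 61.0). Among the 813 regions from 1000 to under 2000 bp it was 17.3% (14.9 to 20.1), and of the 162 regions of 2000 bp or more a single one lacked H2A.W.6. A longer region has more bases in which it can meet an H2A.W.6 region, so part of this follows from the rule. All intervals given are for counting error alone, and regions next to each other are not independent of one another.

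In total the regions covered 1.82 Mb, 1.93% of the 94.1 Mb of arm sequence, and held 41.2% of all bases that H2A.W.7 covered in the arms. Shared regions were fewer but covered 2.60 Mb, 2.76% of the arms. By chromosome, the regions found with H2A.W.7 only numbered 1134 on chromosome 1, 730 on chromosome 2, 956 on chromosome 3, 641 on chromosome 4 and 1069 on chromosome 5. Set against arm length these counts were even, from 44.8 per Mb on chromosome 1 to 52.9 per Mb on chromosome 2. The share of H2A.W.7 regions without H2A.W.6 was lowest on chromosome 3 at 54.3% (52.0 to 56.6) and highest on chromosome 2 at 62.0% (59.2 to 64.7).

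Over all arms pooled, the regions were sparser in each class farther from the centromere. The border of the centromeric part was taken from the authors' split of their lists. Within 500 kb of it there were 127 regions found with H2A.W.7 only per Mb, between 4 and 6 Mb from it 43.2 per Mb, and between 10 and 15 Mb from it 19.9 per Mb. Shared regions fell off more steeply, from 140 per Mb to 27.4 and then 4.54 per Mb over the same distances. Of the regions found with H2A.W.7 only, 25.4% lay within 1 Mb of the centromeric part (1152 regions, 24.2 to 26.7), against 35.2% of the shared ones and 10.6% of arm sequence. The median distance to the centromeric part was 2.89 Mb for the regions found with H2A.W.7 only and 2.01 Mb for the shared regions.

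The share of H2A.W.7 regions that lacked H2A.W.6 was higher far from the centromere. It was 47.6% within 500 kb of the centromeric part (39.1 to 57.4 across the 5 chromosomes). Between 10 and 15 Mb it was 81.5% (77.0 to 85.2, and 74.6 to 86.7 across the 5 chromosomes), with 277 regions of H2A.W.7 only against 63 shared. The rise was not even, since the share was 59.6% between 1 and 2 Mb and 55.5% between 3 and 4 Mb. The chromosomes differed most between 4 and 6 Mb, where they ran from 41.1% to 74.3%. H2A.W.6 regions themselves fell from 158 per Mb within 500 kb to 6.84 per Mb beyond 10 Mb, so a region placed anywhere near the centromere had more of them to meet. The lengths of the regions found with H2A.W.7 only hardly moved along the arm, with medians from 315 to 340 bp in all 9 distance classes.

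**Figure D2:**
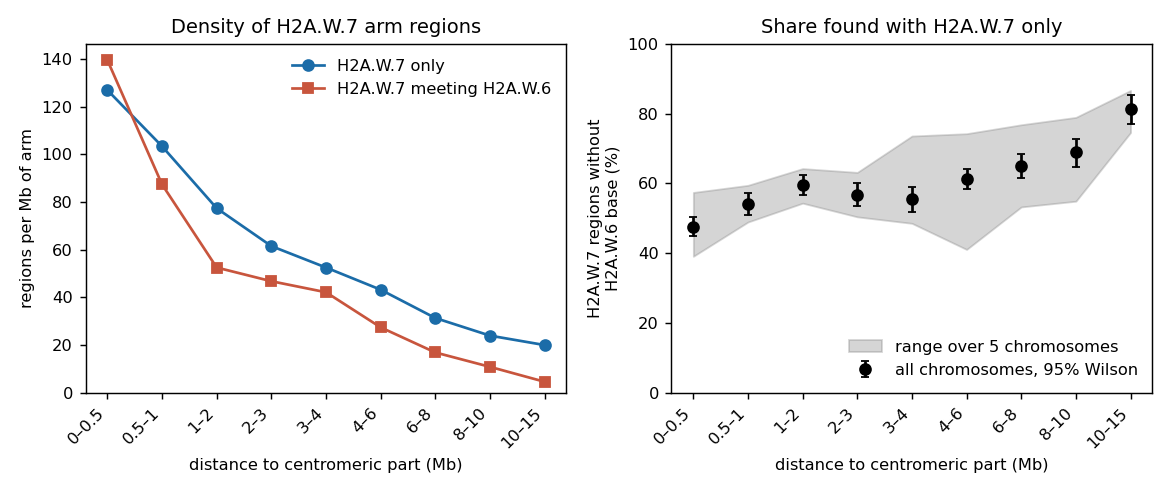
Left, H2A.W.7 arm regions per Mb of arm sequence by distance to the centromeric part in Mb, for regions found with H2A.W.7 only and regions that meet H2A.W.6. Right, the share of H2A.W.7 regions without an H2A.W.6 base in percent, with points and 95% Wilson bars over all chromosomes and a band for the range over the 5 chromosomes. Both densities fall with distance, from 127 and 140 per Mb to 19.9 and 4.54 per Mb, and the share is 47.6% in the nearest class and 81.5% in the farthest.

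The short left arms of chromosomes 2 and 4, 1.4 Mb each, had the highest densities of the 10 arms, 120 and 87.9 regions found with H2A.W.7 only per Mb, and all of their sequence lies within 1.4 Mb of the centromeric part. Both arms end at a nucleolus organiser, the array of ribosomal RNA genes. They differed in the other class, since the left arm of chromosome 2 had 126 shared regions per Mb and that of chromosome 4 had 37.1. Regions without H2A.W.6 thus made up 48.8% of the H2A.W.7 regions of the left arm of chromosome 2 (43.6 to 54.1), the lowest share of the 10 arms, and 70.3% of those of chromosome 4 (63.1 to 76.6), the highest. Among the other 8 arms the density ran from 40.3 per Mb on the left arm of chromosome 1 to 58.3 per Mb on the right arm of chromosome 3.

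At the chromosome ends, where the telomere repeats begin, regions found with H2A.W.7 only stood at 6 of 10 ends within the last 10 kb, 12 regions in all, or 120 per Mb of that sequence. The same sequence held 5 shared regions, or 50.0 per Mb, and 7 H2A.W.6 regions. Shared regions covered 13.8% of its bases, against 4.75% for H2A.W.7 only. The share of H2A.W.7 regions without H2A.W.6 there was 70.6% (46.9 to 86.7), an interval that contains the 58.5% of all arms. Without the short left arms of chromosomes 2 and 4, there were 12 regions found with H2A.W.7 only and 2 shared ones. The share was then 85.7% (60.1 to 96.0), an interval above 58.5% that rests on very few regions. In that sequence shared regions covered 2.70% of the bases, against 5.94% for H2A.W.7 only. At left ends the regions found with H2A.W.7 only were chr5:1-395, which holds the long non-coding RNA gene AT5G00730, chr1:261-470 and chr1:481-960, and chr3:411-1625. At right ends the outermost were chr1:30427296-30427595, on the transcribed pseudogene AT1G81020, chr2:19697956-19698289 and chr5:26975076-26975502. The last base of the chromosome was taken as the highest position in the lists or the gene table, so a distance of 0 is by that measure. At 3 of these 6 ends, the right ends of chromosomes 1 and 5 and the left end of chromosome 1, the nearest H2A.W.6 region was 77.5 to 176 kb from the end. It was 14.3 kb from the right end of chromosome 2, 28.6 kb from the left end of chromosome 3 and 545 bases from the left end of chromosome 5. At the other 4 ends the outermost region found with H2A.W.7 only was farther in, 52.7 kb at the left end of chromosome 2, 17.0 kb at the left end of chromosome 4, 50.9 kb at the right end of chromosome 4 and 302 kb at the right end of chromosome 3. The H2A.W.7 list as a whole stopped 252 kb before that last end, while 1 H2A.W.6 region lay beyond. Reads from repeats near telomeres may map to several places, and how the authors treated such reads is not given in the sources used here. Over the last 1 Mb of each arm, the regions found with H2A.W.7 only were 8.26% of their kind (7.49 to 9.09) on 10.6% of arm sequence. This includes the short left arms of chromosomes 2 and 4, whose last 1 Mb is also near the centromeric part. Between 0.5 and 1 Mb from the end there were 38.8 such regions per Mb with these arms and 22.5 per Mb without them. Between 0.1 and 0.5 Mb the values were 35.8 and 19.7 per Mb.

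The regions lay in loose groups, more often with one another than with the shared regions, which are fewer. Another H2A.W.7 region of either kind was within 1000 bp of 52.9% of them (51.5 to 54.4), and within 200 bp of 34.2%. Among shared regions the corresponding shares were 82.8% and 59.2%. A second region found with H2A.W.7 only was within 1000 bp of 40.9%, and a shared region was within 1000 bp of 18.7%. The nearest H2A.W.7 neighbour was of the same kind for 3340 of the 4530. Some of these neighbours were split by very small gaps, since 264 of the regions had another H2A.W.7 region within 5 bp, the grid on which the lists are written, and 69 of these faced a shared region. Joining H2A.W.7 regions within 200 bp before the overlap was taken left 3467 regions without H2A.W.6 and lowered the share with a neighbour within 1000 bp to 28.4%.

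Counted as chains, with gaps of at most 1000 bp and no shared region in between, the 4530 regions formed 3502 groups. Single regions made up 2725 of these and pairs 604, and 15 groups held 5 or more. The longest chains had 7 members. One spanned chr5:20277086-20281350, with 2950 of its 4265 bases covered and no annotated gene inside, beside MAD1. The others with 7 members, chr1:21823086-21827480 and chr2:17253736-17256935, held no annotated gene either. A chain of 6 at chr3:4727241-4729870 covered 2500 of 2630 bases and took in 18.9% of the body of ESM1, a myrosinase-associated protein gene that modifies how glucosinolates are broken down.

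In 1878 windows of 50 kb along the arms, the count of regions found with H2A.W.7 only had a median of 2 and a maximum of 14, and 440 windows had none. Shared regions were more uneven, absent from 1048 windows and up to 38 in 1 window. Windows with H2A.W.7 only and no shared region numbered 703, and they held 37.3% of the regions found with H2A.W.7 only. The windows in which both occurred numbered 735. Windows without a shared region had a mean of 1.61 regions found with H2A.W.7 only, those with 1 shared region 2.59, those with 2 or 3 had 3.63, those with 4 to 6 had 3.56 and those with 7 or more had 4.66. The windows are stretches of one genome, not replicates.

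The fullest windows held 12 to 14 of the regions. The window chr3:16050001-16100000 held 14, beside 7 shared regions, and they covered all of MIR849, 82.1% of the long non-coding RNA gene AT3G06835 and 47.0% of the protein-coding gene AT3G44440. RPP1, a resistance locus against downy mildew, lies in the same window. The windows chr5:9350001-9400000 and chr5:15100001-15150000 held 14 each and touched no annotated gene. The window chr4:6750001-6800000 held 13 with 2 shared regions and reached MIR5020a (100%), the transcription factor gene WRKY41 (29.5%), the long non-coding RNA gene AT4G05850 (13.0%) and the cellulase gene GH9C3 (7.9%). The window chr3:16200001-16250000 held 12 and touched the histone deacetylase gene HDA9 (2.5%).

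The sequence between genes took most of the bases found with H2A.W.7 only. Of their bases, 81.4% lay outside annotated genes (80.0 to 82.9% across chromosomes), against 44.6% for shared regions and 32.0% of arm sequence. Pseudogenes, a class that includes genes of transposon origin, took 2.91%, against 35.6% for shared regions and 1.83% of arm sequence. Protein-coding gene bodies took 12.4%, against 16.7% for shared regions and 64.2% of arm sequence. The gene table lists no transposons other than those entered as genes, so transposon fragments between genes count as outside. How many of the regions lie on such fragments was not analysed here. H2A.W.6 regions held 50% or more of 434 of the 762 arm pseudogenes, so regions chosen for lacking H2A.W.6 have fewer of them left to cover.

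**Figure D3:**
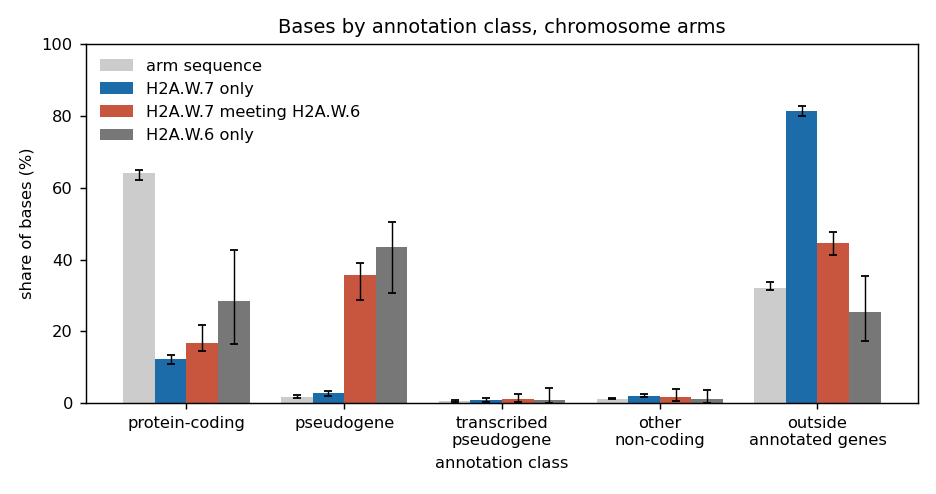
Share of bases by annotation class in percent for arm sequence, regions found with H2A.W.7 only, H2A.W.7 regions that meet H2A.W.6 and regions found with H2A.W.6 only. Whiskers give the lowest and highest of the 5 chromosomes. The bases found with H2A.W.7 only are 81.4% outside annotated genes and 2.91% in pseudogenes, against 44.6% and 35.6% for those that meet H2A.W.6.

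Taken region by region, 3354 of the 4530, 74.0% (72.7 to 75.3), lay wholly outside annotated genes, 622 lay partly in a gene and 554 wholly inside genes. Of the shared regions 30.8% (29.2 to 32.4) lay wholly outside. For 2750 of the 3354 regions outside genes the nearest gene was protein-coding, for 231 it was a long non-coding RNA gene and for 142 a pseudogene. The gaps between annotated genes that held such regions were long. Their median length was 2186 bp, against 646 bp for all 25773 gaps of the arms. Regions found with H2A.W.7 only covered 0.68% of the sequence of gaps under 250 bp, 5.13% of gaps from 1000 to under 2000 bp, 6.17% of those from 2000 to under 4000 bp and 4.19% of those from 8000 to under 16000 bp. Since no region is shorter than 200 bp, the smallest gaps can seldom hold one whole.

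More of these regions than of the shared ones had a protein-coding gene within 500 bp, but a smaller share of their sequence lay that near to one than of arm sequence at large. Of the 4530 regions 817 (18.0%) touched a protein-coding gene and 420 (9.27%) lay wholly inside such genes, against 23.6% and 10.2% of the shared regions. With these included, a protein-coding gene was within 500 bp of 50.3% of the regions (48.9 to 51.8, and 49.0 to 52.6% by chromosome), against 37.6% of shared regions, and within 2000 bp of 88.2%, against 64.8%. Counted in bases, 36.4% of the sequence found with H2A.W.7 only lay in a protein-coding gene or within 500 bp of one, against 26.9% for shared regions and 79.2% of arm sequence. Within 2000 bp the values were 86.2%, 59.0% and 94.1%. For regions wholly outside genes the median distance to the nearest protein-coding gene was 667 bp, and 1122 bp for shared ones. The gene table gives no strand, so the start and the end of a gene are not told apart.

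Outside protein-coding genes, the cover by distance from the nearest such gene had a different shape for the regions found with H2A.W.7 only and the shared ones. Regions found with H2A.W.7 only covered 1.34% of the first 100 bases beside a gene, 5.05% between 300 and 500 bp and 6.76% between 750 and 1000 bp, where they were highest. Farther out they covered less, 5.15% between 2000 and 3000 bp and 3.77% between 5000 and 10000 bp. Shared regions covered 1.39% of the first 100 bases and rose without a turn, to 5.15% between 750 and 1000 bp, 12.8% between 2000 and 3000 bp and 33.9% between 5000 and 10000 bp. The highest class for the regions found with H2A.W.7 only lay between 750 and 1000 bp on chromosomes 1, 2, 3 and 5 and between 500 and 750 bp on chromosome 4. In arm sequence more than 2 Mb from the centromeric part, the turn remained, with 5.56% between 750 and 1000 bp and 2.75% between 5000 and 10000 bp. Shared regions there still covered 3.625% and 30.8% of the same classes, so the rule acted on that sequence too. Sequence far from genes is where H2A.W.6 is dense, 36.6% covered between 5000 and 10000 bp, so a region there had more H2A.W.6 to meet.

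**Figure D4:**
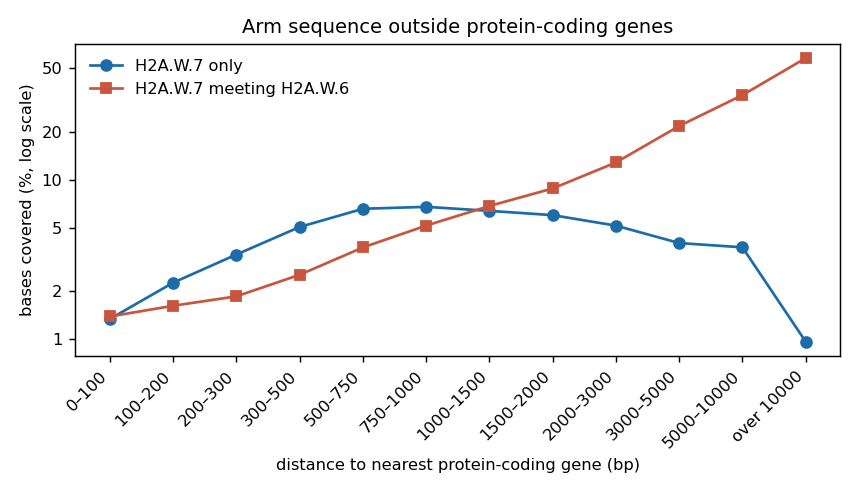
Share of bases covered, in percent on a log axis, by distance in bp to the nearest protein-coding gene, for arm sequence outside protein-coding genes. Regions found with H2A.W.7 only are highest between 750 and 1000 bp, at 6.76%, and shared regions rise through every class to 33.9% between 5000 and 10000 bp.

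Few protein-coding genes carried these regions over their body. Of 25344 arm protein-coding genes, 753 (2.97%) were touched by a region found with H2A.W.7 only and 114 (0.45%) had 50% or more of the body in such regions. The 114 were short, with a median of 528 bp against 2106 bp for all, and 92 of them were under 1000 bp. Of all arm protein-coding genes under 1000 bp 2.48% were covered to that extent, against 0.10% of longer ones. Regions with a median of 325 bp can more easily fill 50% of a short gene. Over arm genes of every class, 1124 (3.55%) were touched. Most had no name in the gene table, which gave a symbol other than the locus number to 8 of the 114. Those given here were picked out after their values were seen. LURE1.3, a secreted peptide of the family that guides pollen tubes, had 65.0% of its body in chr5:17478101-17478440. PPME1, a pectin methylesterase of pollen tubes, had 53.0% in chr1:26343671-26344615. SPH1, a homologue of the self-incompatibility S-proteins of poppy, had 100% in chr4:9215616-9216405. The defensin-like peptide genes LCR27 and LCR25 had 61.8% and 58.7%. Lower shares were found at the syntaxin gene ATSYP24 (51.0%) and the Dof transcription factor gene ATDOF4.2 (50.9%). The body of ATDOF4.2 also had 24.3% of its length in H2A.W.6 regions, and the bodies of the others given here had none. By the rule, only the part of a body outside the regions found with H2A.W.7 only could hold any.

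Among genes of 1000 bp or more, the largest shares of the body were in pseudogenes and in genes with no name. The pseudogenes AT5G65676 and AT3G29187 lay wholly inside the regions. They were followed by the protein-coding genes AT4G02910 (87.6%), AT5G52115 (86.7%) and AT5G51650 (84.3%), the non-coding AT5G00650 (81.8%), the pseudogene AT3G23085 (81.0%), and the protein-coding AT3G18700 (79.7%), AT1G53655 (78.1%) and AT1G05035 (74.6%). All 10 had 0% of the body in H2A.W.6 regions. This mostly follows from the rule, since only the part of a body outside the regions could hold any. For AT5G65676 and AT3G29187 no such part was left.

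Beside genes the regions were common. Of the arm protein-coding genes 3584 (14.1%) had a region found with H2A.W.7 only within 1000 bp of the body, against 1554 (6.13%) for shared regions. Over arm genes of every class the shares were 14.6% and 8.19%. Most of the 3584 had a single such region, 2953 of them, and 81 had 3 or more. The most, 5, were beside AT1G30972, spread from chr1:11044291 to 11046185 with 68.4% of the body covered. A further 9 genes had 4 each, and of these AT4G02910, AT3G29190, GNL1 and AT2G17920 had the most covered bases. GNL1, which encodes an exchange factor for ARF GTPases in traffic between Golgi and endoplasmic reticulum, held none in the body and 2 on each side, of 340 to 655 bp.

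Of the 10 arm genes listed for control by DNA methylation or imprinting, 6 had a region found with H2A.W.7 only within 1000 bp (31.3 to 83.2%), against 14.1% of all arm protein-coding genes. The list was drawn up with earlier results for SDC and FWA known, so its count is a description. EPF2, also listed, lies in the centromeric part. SDC, an F-box gene silenced by methylation of repeats at its promoter, had 1 of the longest regions, chr2:7680836-7682540, 1705 bp with 379 of them in the gene, and the nearest H2A.W.6 region 21.4 kb away. FWA, a homeodomain gene whose methylated repeats keep it silent outside the endosperm, had chr4:13038116-13038845, 730 bp with 486 in the gene, 289 kb from any H2A.W.6. HDG9, a homeodomain gene of the same class imprinted in the endosperm, had 3 regions of 265 to 455 bp, chr5:5702071-5702375, chr5:5702781-5703045 and chr5:5707286-5707740, the last with 352 bases in the gene. HDG3, its imprinted relative, had chr2:13739951-13740265 at 612 bp from the gene. FIS2 and MEA encode Polycomb proteins that act in the endosperm. FIS2 had chr2:14991601-14991915 at 649 bp and MEA had chr1:550121-550925 at 918 bp. For these 6 genes the nearest H2A.W.6 region was 21.4 to 289 kb from the H2A.W.7 region. Of the listed genes without such a region, not all of which are reported here, the imprinted gene PHE1 had 0 regions found with H2A.W.7 only within 1000 bp and 1 shared one. FLC, the vernalisation-controlled flowering repressor, and the DNA demethylase gene DML1, also called ROS1, had no H2A.W.7 region of either kind within 1000 bp.

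Not all genes listed for the DNA damage response are reported here, so no share of the list is given. Among all arm protein-coding genes 14.1% had a region found with H2A.W.7 only within 1000 bp. ATR, the checkpoint kinase related to ATM, had 1 such region, of 230 bp at 27 bp from the gene. ATM, SOG1, BRCA1, KU70, KU80, ATLIG4, PARP1, PARP2, WEE1 and AT1G07500, the cell cycle inhibitor SMR5, had none and no shared region either. Of the H2A.W genes themselves, HTA6, which encodes H2A.W.6, had 1 region of 285 bp at 500 bp, and HTA7 and HTA12 had none.

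Of the gene families, the defensin-like peptides had the largest share among those with over 30 arm genes. In this family of small secreted cysteine-rich peptides, many of them known from reproductive tissue, 21 of 97 genes (21.6%, 14.6 to 30.8) had a region found with H2A.W.7 only within 1000 bp, against 14.1% of all arm protein-coding genes. The family was singled out for its large share, and the interval takes its genes as independent. Genes next to each other can count the same region, so a difference from 14.1% was not tested. LCR65 had the most bases, 730 in 2 regions, followed by LCR20 with 685 and LCR12 with 656. The WRKY factors, known from defence, had 13 of 68 (19.1%, 11.5 to 30.0), with 953 bases beside WRKY17 and 948 beside WRKY7. The ethylene response factors had 6 of 27 (10.6 to 40.8% as an interval), with 655 bases at ERF10, and the matched disease resistance genes 3 of 10, RPP1, NDR1 and RPP5. The intervals of the WRKY, ethylene response factor and disease resistance lists (the last 10.8 to 60.3%) all contain 14.1%. The disease resistance list includes NDR1, a signalling protein and no receptor.

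In the other families the share ran from 9.80% to 14.2%. Photosynthesis genes had 5 of 51 (9.80%), among them PSAL, a subunit of photosystem I, beside a region of 1050 bp at chr4:7519896-7520945, and RBCS1A, a small subunit of Rubisco, with 290 bases inside the gene. The auxin-induced SAUR genes had 8 of 75 (10.7%), F-box proteins named as such 3 of 27 (11.1%), heat-shock proteins 2 of 17 (11.8%), ribosomal proteins 8 of 66 (12.1%) and small signalling peptides 10 of 82 (12.2%), with 1105 bases at CLE11. Core histones had 3 of 22 (13.6%) and cytochrome P450 genes 32 of 225 (14.2%).

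**Figure D5:**
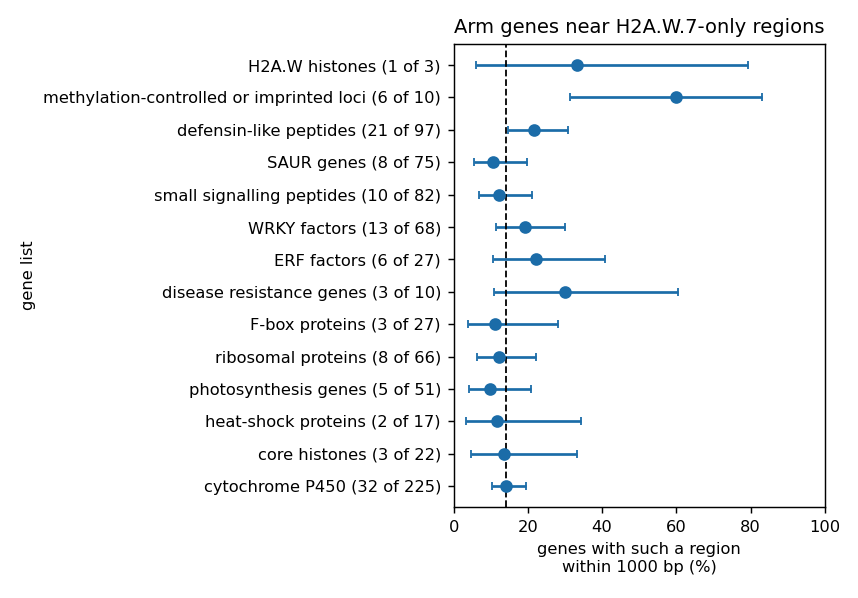
Share of arm genes of each list shown with a region found with H2A.W.7 only within 1000 bp, in percent, with 95% Wilson bars for counting error and the counts in brackets. The dashed line is the 14.1% of all arm protein-coding genes. The highest point is that of the methylation-controlled or imprinted loci, 6 of 10, and the lowest that of the photosynthesis genes, 5 of 51.

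Non-coding genes differed by class. MicroRNA genes, whose hairpin transcripts give short regulatory RNAs, had 25 of 283 arm members (8.83%, 6.06 to 12.7) with 50% or more of the gene in regions found with H2A.W.7 only, against 0.914% of all arm genes, while 9 had that much in H2A.W.6 regions. For 19 of the 25 the whole gene lay inside. Of tRNA genes 6 of 583 (1.03%) and of small nucleolar RNA genes 1 of 271 (0.37%) were covered to that extent. The median gene length was 141 bp for microRNA genes, 73 bp for tRNA genes and 93 bp for small nucleolar RNA genes, and its part in these shares was not tested. The 25 fell into 17 families by name. MIR8167 had 5 of its 6 arm members, MIR8167b to MIR8167f, each whole, and MIR8167b lay in chr3:17469756-17471100. MIR5635 had 4 of 4, with 78.3% of MIR5635a and the whole of MIR5635b, MIR5635c and MIR5635d. MIR5645 had 2 of 2, MIR5645f inside chr5:14946501-14947320 and MIR5645a. Members of 1 family share sequence, so reads could be split between them and their cover is not independent. Among names with a number of 5000 or above, which were given later, 21 of 85 were covered, against 4 of 198 with lower numbers, a split chosen after the values were seen. Those 4 were MIR405b, MIR426, MIR776 and MIR849.

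Of 3059 long non-coding RNA genes in the arms, 70 (2.29%, 1.81 to 2.88) had 50% or more of the gene in these regions. For all arm genes the share was 0.914%, and for protein-coding genes under 1000 bp 2.48%. Long non-coding RNA genes had a median length of 341 bp. They were touched in 3.47% of cases and had a region within 1000 bp in 13.0%, against 3.55% and 14.6% of all arm genes. The longest of the 70 were AT3G09465 (1171 bp, 52.1%), AT1G05817 (769 bp, 100%) and AT5G05895 (766 bp, 100%). Near the right end of chromosome 3, AT3G09825, AT3G09835 and AT3G09845 lay wholly inside the regions, the last at chr3:23157456-23158180. The 6 tRNA genes included the tyrosine tRNA gene AT1G56920, the serine tRNA gene AT1G57180, the threonine tRNA gene AT4G31895 and the glycine tRNA gene AT1G33370. The snRNA gene U1.3 had 57.7% of its length covered and the snoRNA gene AT1G06673 all of it. Shared regions covered 48 tRNA genes (8.23%) and 2 of 2 rRNA genes to 50% or more, and H2A.W.6 regions also covered both rRNA genes. Neither rRNA gene had a base in regions found with H2A.W.7 only, which by the rule hold no H2A.W.6 base.

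Pseudogenes were touched by the regions more often than protein-coding genes, 122 of 762 (16.0%) against 2.97%. With 50% or more of the body in the regions there were 37 (4.86%), against 0.45% of protein-coding genes and 0.914% of all arm genes. Shared regions covered 393 pseudogenes (51.6%) to that extent. Of the 122, 72 also held bases of a shared or H2A.W.6 region, and the median share of the body in regions found with H2A.W.7 only was 21.2%. Transcribed pseudogenes had 23 of 563 covered (4.09%) by regions found with H2A.W.7 only and 44 (7.82%) by shared ones.

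The 10 longest regions show the kinds of place in which they lay. The longest, chr4:6699181-6701280, 2100 bp and the single one of 2000 bp or more, reached into KELP, a gene for a transcriptional coactivator (3.4% of its body), and lay 9.61 kb from H2A.W.6. The next, chr3:10262176-10264040 with 1865 bp, lay in a gap between AT3G27700, 200 bp away, and ARI3, and the third was that of SDC. Those at chr2:1370276-1371965 (1690 bp), chr3:7856926-7858550 (1625 bp) and chr3:17382161-17383710 (1550 bp) also touched no gene. The other 4 lay on pseudogenes. They were chr1:21210171-21211850 with all of AT1G56605 and 4.6% of the protein-coding AT1G56610, next to GolS2, which makes the osmoprotectant galactinol, chr5:7235871-7237470 with all of AT5G21535, chr5:26258391-26259970 with all of AT5G65676, near the auxin response gene IAA9, and chr4:663921-665475 with 69.7% of AT4G01530, beside SADHU5-1, a copy of the Sadhu retroposons. On the left arm of chromosome 1, which is not among these, the longest was chr1:1441411-1442920, 1510 bp with 13.5% of AT1G05030.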

How the data were processed

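The authors deposited, per immunoprecipitation, lists of enriched regions as other values, the start and end positions alone, split into arms and a centromeric part. TAIR10 and bedtools are named per the submitters' processing notes, and for aligner, caller, threshold and use of the control the answer is: not given in the sources used here. Positions are printed counted from 1. Regions were compared in Python 3.11.15 with pandas 2.3.3 and numpy 2.4.6, with intervals from statsmodels 0.14.6, and bedtools 2.31.1 gave the same 4530 regions. The centromeric border was the single multiple of 100000 bp between the lists on each side. Genes came from a RefSeq table of assembly TAIR10.1 (37899 nuclear genes, 31618 in the arms by their midpoint), whose name differs from the lists' build, so no gene coordinate is printed. Where genes overlap, bases were given to protein-coding genes before pseudogenes and non-coding genes. Lists were matched by symbol or synonym, and 7 matches to another gene of the same symbol were removed. The functions were checked on simulated lists, 1500 of 1500 regions right.

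Members and lists were chosen with earlier results of these data known. Named are the 10 longest regions, the longest of each arm and the outermost, the 10 genes of 1000 bp or more with the largest share of the body, the 5 fullest windows of 50 kb, the 5 protein-coding genes with most regions within 1000 bp, up to 10 genes per list near a region, and covered small non-coding genes. Others are said to be picked later, and some genes and lists are not reported here. Shares carry 95% Wilson intervals. Alternatives were other overlap rules, regions at or above the median length, merging within 200 bp, each chromosome left out, other distances, a narrower annotation and, chosen after seeing the data, the arms without the left arms of chromosomes 2 and 4.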

Additional observations from a re-analysis of the deposited data

How the results depend on the processing

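No paired analysis was possible because each immunoprecipitation was 1 library. A share over regions or genes counted as moved outside its Wilson interval, and the count, the median and the share of bases when changed by over 1.5 times. By that, 26 of 77 alternatives to the 7 results moved and 51 did not. The limit of 1.5 times is wide, so for some alternatives the outcome was set beforehand. A share of 81.4% of bases cannot rise by 1.5 times, and no chromosome held enough regions to move the count when left out. The number that did not move is therefore no measure of stability. The cause was not tested for those that moved, apart from those whose own rule sets it (fewer regions, another distance). Keeping regions at or above the median length of the whole H2A.W.7 arm list left 1670 regions with a median of 545 bp, 28.4% with an H2A.W.7 neighbour within 1000 bp, 54.4% with a protein-coding gene within 500 bp and 6.53% of arm protein-coding genes within 1000 bp of one. With no H2A.W.6 within 1000 bp the share within 1 Mb of the centromeric part was 22.5%, with a neighbour 43.3%, with a gene 52.9%, and 12.4% of genes had one. Merging gave 24.0%, 28.4%, 55.7% and 13.1% for the same 4. Regions with under 50% of their bases in H2A.W.6 gave 54.8% with a neighbour and 16.0% of genes. The share within 1 Mb of the centromeric part was 29.2% without chromosome 1, 24.1% without chromosome 3, 24.1% without chromosome 4 and 21.9% without the left arms of chromosomes 2 and 4 (chosen after seeing the data), where 13.7% of genes had one. At 200 and 5000 bp, 34.2% and 72.2% had a neighbour, at 200 and 1000 bp 30.9% and 69.7% had a gene, and at 0 and 500 bp 2.97% and 9.71% of genes had one. The share of bases outside annotated genes stayed between 77.5% and 84.7% in all its 11 alternatives. The depth of each library is unknown and limits all counts.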
